A study of Mus musculus with 4 samples.

Results

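The scratch response of MLE-12 cells labelled Lingo1 knockout was measured as the difference between 1 library of scratched cells, collected 24 hours after the wound, and 1 library of unscratched cells with the same genotype label. Genes were included when they had at least 1 CPM (counts scaled to a common library total) in either library. This rule kept 12133 of the 46078 genes in the count table. Of these, 11862 genes reached the minimum in both libraries, 112 only in the scratched and 159 only in the unscratched library. The wild-type pair of the series, 1 unscratched library and 1 library from 24 hours after a scratch, served as the comparison and shares no library with the knockout-labelled pair. The labels give neither the way the knockout was made nor the number of clones, and name no separate cultures.

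MLE-12 is a mouse lung epithelial line that came from a tumour driven by SV40 large T antigen under a surfactant protein C promoter, so all 4 libraries come from cells that carry this oncogene. In a scratch assay a strip of cells is removed from a confluent layer, and the cells at the edge spread, migrate and divide until the gap is closed. Any cells away from the edge that were collected dilute a gene used only at the edge in a bulk library, where more cells expressing a gene and more RNA per cell cannot be told apart. Lingo1 encodes a leucine-rich repeat membrane protein best known as a partner of the Nogo receptor, which restrains axon growth in neurons. One gene programme that recurs below, the amino acid response, is driven by the transcription factor ATF4, which is translated when amino acids run short or when growth signalling demands more protein, and which turns on genes for amino acid synthesis, uptake and tRNA charging.

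Lingo1 mRNA (ENSMUSG00000049556, chromosome 9, 56618475 to 56796468, minus strand, mm10) was close to its wild-type level in the libraries labelled knockout. It stood at 41.2 CPM in the unscratched and 41.4 CPM in the scratched knockout-labelled library, against 46.4 and 42.9 CPM in the wild-type libraries. The genotype is therefore given here as the label states it. The knockout-labelled libraries held 29533746 counts without and 48333801 counts after the scratch, and the wild-type libraries held 26903429 and 27907279. Epithelial and lung markers differed in level in the knockout-labelled libraries. In unscratched and scratched cells, Krt8 was at 328 and 331 CPM and Cdh1 (E-cadherin) at 712 and 775 CPM. Nkx2-1, a transcription factor of lung epithelium, was at 137 and 132 CPM. Epcam was scarcer at 5.47 and 5.28 CPM, and Krt18 was near 0 (8 and 10 counts). Of the 11 epithelial markers listed, 7 were measured at 1 CPM or more in either library. The alveolar type 2 genes Sftpc, Sftpb and Abca3 were counted at 20.6, 107 and 185 CPM in unscratched cells, while Lamp3, another type 2 marker, was near 0 (3 and 12 counts). The type 1 marker Ager was also present, at 445 and 397 CPM. Ptprc, the pan-leukocyte marker, had 0 counts in every library. This allows up to 0.101 and 0.0626 CPM (3 counts) in the unscratched and scratched knockout-labelled library. Pecam1 of endothelium had 6 and 10 counts there. Not all markers of other cell types were scarce. The 12 endothelial markers summed to 215 and 181 CPM in the knockout-labelled pair, with 2 of them measured at 1 CPM or more. Of 14 fibroblast markers, 6 were measured. Among these, Dcn was at 2710 and 2481 CPM in the knockout-labelled and 2846 and 2819 CPM in the wild-type libraries.

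The scratch response of the knockout-labelled cells was small. A gene was called when its log2 difference, taken after a prior count of 2 was added, reached a given fold and its exact 95% counting interval excluded a ratio of 1. At 1.5-fold, 58 of 12133 genes (0.478%) were higher and 77 (0.635%) were lower after the scratch. At 2-fold, 17 (0.14%) were higher and 6 (0.0495%) were lower. Of the 17 genes higher by 2-fold, 14 were ribosomal, small structural or histone RNAs, and the other 3 (Pla2g4c, Atp6v1g2 and Nrg2) as well as the 6 lower genes were counted at under 5 CPM. The 1.5-fold calls included 26 higher and 50 lower protein-coding genes other than histones and mitochondrial genes, and 68 of these stayed under 5 CPM in both libraries. With no replicate, these differences have no check beyond the counting interval, which leaves out variation between cultures and library preparations, and no correction was made for the number of genes.

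Among protein-coding genes of at least 5 CPM, 8 passed the 1.5-fold rule, 7 higher and 1 lower. A 1.25-fold rule, set after it was seen how few genes reached 1.5-fold, is used below for the well-counted genes and, in the gene lists, for all measured members. Under it 93 of 10163 protein-coding genes of at least 5 CPM (0.915%) were higher and 116 (1.14%) were lower after the scratch. The same rule in the wild-type pair gave 198 higher (1.95%) and 225 lower (2.21%). The log2 differences had an SD of 0.12 across these genes in the knockout-labelled and 0.16 in the wild-type pair, against a median counting error of 0.048 in the knockout-labelled pair. Of the 93 higher genes, 32 were also higher in the wild-type pair, which is 34.4% of the knockout-labelled and 16.2% of the wild-type calls, and 3 were lower there. Of the 116 lower genes, 22 were lower in both pairs, 19.0% of the knockout-labelled and 9.78% of the wild-type calls, and 0 were higher in wild type. Across the 10163 genes the responses of the knockout-labelled and wild-type pairs had a Pearson correlation of 0.37 and a Spearman correlation of 0.34, and 62.3% had the same sign. Genes within a library are not independent replicates, so these values carry no p-value.

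**Figure D1:**
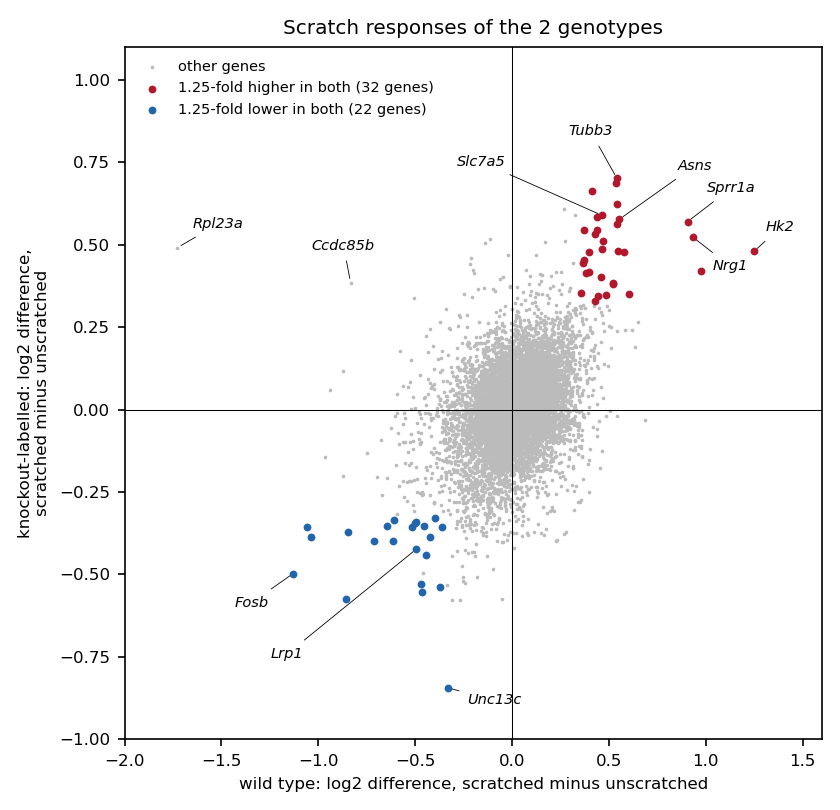
Log2 scratch response of 10163 protein-coding genes of at least 5 CPM in the wild-type pair (x axis) and the knockout-labelled pair (y axis), 1 library a side, with each gene a point. The 32 genes at least 1.25-fold higher in both pairs are red and the 22 lower in both are blue, and Rpl23a and Ccdc85b lie at the upper left, higher in the knockout-labelled and lower in the wild-type pair.

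Genes of the amino acid response lay mostly above their unscratched level after the scratch. Over 4 lists (ATF4 stress regulators, serine, folate and proline synthesis, amino acid transporters, and aminoacyl-tRNA synthetases), 69 of 81 measured genes were above 0 and 15 passed the 1.25-fold rule upward, against 1.44% of all 12133 genes. In both pairs 11 of the 81 genes were higher by that rule, against 32 of the 10163 well-counted protein-coding genes. The 1.44% over all genes also stands beside the upward counts of the single lists below. Asparagine synthetase, Asns (ENSMUSG00000029752, chromosome 6, 7675169 to 7693254, minus strand), which makes asparagine from aspartate and glutamine, went from 99.9 CPM in the unscratched to 149 CPM in the scratched knockout-labelled library, 1.49-fold higher (95% interval 1.43 to 1.56). The wild-type libraries held 114 and 168 CPM of it, 1.47-fold higher (1.4 to 1.54), so the intervals of the Asns ratio overlapped between genotypes and both lay above 1. Chac1, an enzyme that degrades glutathione, was at 8.58 and 12.4 CPM, 1.45-fold higher (1.25 to 1.69). Trib3, a pseudokinase that feeds back on ATF4, was at 17.5 and 25.8 CPM, 1.48-fold higher (1.33 to 1.64). In wild type the ratios were 1.35 for Chac1 and 1.46 for Trib3, both with intervals above 1.

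The promoters of these 3 genes are shown because each holds a match to TGATGNAA, the core of the element that ATF4 binds together with C/EBP partners. They are from RefSeq (GRCm38.p6), read 5′ to 3′ on the gene's own strand from 250 bases before to 30 bases after its start, with the match in capitals. The Asns window is chr6:7693180-7693459 (minus strand), the Chac1 window chr2:119350992-119351271 (plus strand) and the Trib3 window chr2:152344031-152344310 (minus strand).
Asns: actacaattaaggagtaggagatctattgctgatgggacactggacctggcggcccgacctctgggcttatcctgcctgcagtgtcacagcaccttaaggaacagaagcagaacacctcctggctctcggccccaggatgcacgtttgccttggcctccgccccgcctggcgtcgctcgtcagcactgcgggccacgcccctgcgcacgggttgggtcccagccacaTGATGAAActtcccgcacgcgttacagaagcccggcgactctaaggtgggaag
Chac1: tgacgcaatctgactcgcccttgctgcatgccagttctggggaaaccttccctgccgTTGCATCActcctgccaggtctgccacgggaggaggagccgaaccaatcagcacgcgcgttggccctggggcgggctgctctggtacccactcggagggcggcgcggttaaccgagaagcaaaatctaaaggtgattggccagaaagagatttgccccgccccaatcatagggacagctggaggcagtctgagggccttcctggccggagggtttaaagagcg
Trib3: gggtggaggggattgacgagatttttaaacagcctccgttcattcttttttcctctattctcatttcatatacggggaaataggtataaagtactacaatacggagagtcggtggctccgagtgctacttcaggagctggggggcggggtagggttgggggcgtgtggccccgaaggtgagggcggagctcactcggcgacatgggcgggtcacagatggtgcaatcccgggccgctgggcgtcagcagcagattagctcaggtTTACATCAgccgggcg
The Asns match is in the forward direction and begins 23 bases before the start, while those of Chac1 (193 bases before) and Trib3 (15 bases after) are in the reverse direction. The search covered both strands of windows from 250 bases before to 50 bases after a start, and a match of this motif may share bases with a match of another. Of the 81 genes of the amino acid lists, 63 were in the table and 18 (28.6%) had a match, among them Slc1a4, Aars, Iars and Yars. Over all 27025 genes of the table the share was 4.51%. Of the 15 genes that passed the 1.25-fold rule, 12 were in the table and 4 had a match, the 3 genes printed and Slc1a4. A match describes these letters and is no evidence of binding.

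Enzymes that make serine and load its carbon onto folate lay above their unscratched level, most of them by less than 1.25-fold. All 20 measured members of the serine, folate and proline list lay above 0 in the knockout-labelled pair, with a median log2 difference of 0.22 (0.29 in wild type, against 0.01 and 0.02 over all genes tested), and 6 passed the 1.25-fold rule. In the serine branch, Phgdh, which takes the entry step from glycolysis, was at 57.6 and 75 CPM, 1.3-fold higher (1.23 to 1.38), and Psph, which takes the last step, was at 26.2 and 39.3 CPM, 1.5-fold higher (1.38 to 1.63). Psat1, the enzyme between them, was 1.24-fold higher (1.21 to 1.28) and just missed the rule. In mitochondria Shmt2 and Mthfd2 pass the serine carbon to folate. Shmt2 was at 95.6 and 130.1 CPM, 1.36-fold higher (1.3 to 1.42), and Mthfd2 at 106 and 149 CPM, 1.4-fold higher (1.34 to 1.46). Aldh1l2, which oxidises mitochondrial formyl-folate, was 1.46-fold higher (1.37 to 1.56), whereas the cytosolic Shmt1 reached 1.17-fold (1.04 to 1.31). Of the proline enzymes, Aldh18a1 was 1.23-fold higher (1.19 to 1.28) and Pycr1 1.07-fold (1.01 to 1.14), both under the rule.

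Amino acid carriers were mixed. Their median was 0.11 (0.03 in wild type), with 14 of 21 above 0 and 4 past the 1.25-fold rule. Slc7a5 (chromosome 8, 121881150 to 121907694, minus strand), the light chain of the LAT1 exchanger for large neutral amino acids, was at 115 CPM unscratched and 173 CPM scratched, 1.51-fold higher (1.45 to 1.57), and at 120.2 and 166 CPM in wild type. It sits on the 1.5-fold threshold and dropped under it with DESeq2 size factors, total counts, the deposited RPKM values and the correction for GC content and length. Its heavy chain Slc3a2 was 1.25-fold higher (1.2 to 1.3). Slc6a9, a glycine carrier, was 1.43-fold higher (1.3 to 1.57), and Slc1a4, a carrier of alanine and serine, 1.28-fold (1.12 to 1.46). Slc38a2, a glutamine carrier, was 1.2-fold higher (1.17 to 1.23) in the knockout-labelled pair and at a ratio of 0.996 (0.97 to 1.02) in wild type.

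Among the ATF4 stress regulators the median was 0.17 (0.30 in wild type), with 15 of 18 above 0 and 5 past the 1.25-fold rule. Besides Chac1 and Trib3 these were Eif4ebp1, an inhibitor of cap-dependent translation (1.43-fold, 1.32 to 1.54), Sesn2, a sensor of leucine that restrains mTORC1 (1.28-fold, 1.15 to 1.42), and Atf5, a transcription factor related to ATF4. Atf5 was at 27.4 and 38 CPM in the knockout-labelled pair, 1.39-fold higher (1.27 to 1.51), but at 36.5 and 36 CPM in wild type. The scratched libraries thus reached similar levels of Atf5, and the unscratched knockout-labelled library was the low one. Atf4 itself was 1.1-fold higher (1.06 to 1.14) in the knockout-labelled and 1.29-fold (1.25 to 1.34) in the wild-type pair. Ddit3, which encodes the death-associated factor CHOP, was at 1.14-fold (0.986 to 1.32), an interval that includes 1.

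Aminoacyl-tRNA synthetases, which charge tRNAs with amino acids, had small differences, mostly upward: 20 of 22 were above 0, the median was 0.15 (0.25 in wild type) and 0 passed the 1.25-fold rule. The largest values were close to it, with Nars at 1.24-fold (1.2 to 1.28), Aars at 1.22-fold (1.19 to 1.25) and Iars at 1.21-fold (1.16 to 1.26). Xpot, which exports tRNAs from the nucleus, did pass, at 49.7 and 65.6 CPM, 1.32-fold higher (1.24 to 1.41). Eef1e1, a scaffold of the synthetase complex, was 1.34-fold higher (1.19 to 1.51).

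**Figure D2:**
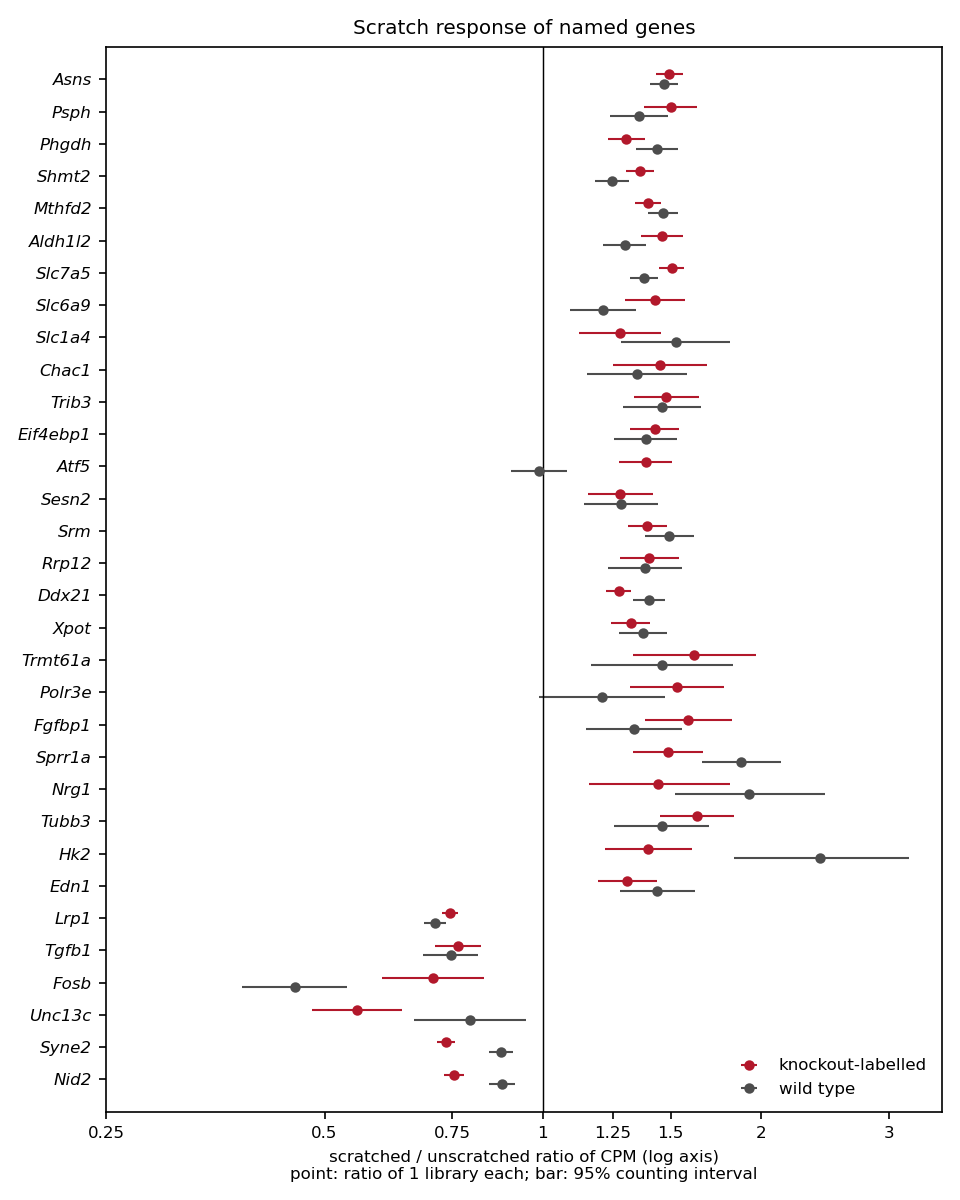
Ratio of scratched to unscratched CPM for 32 named genes on a log axis, in the knockout-labelled pair (red) and the wild-type pair (grey), with 95% counting intervals. The amino acid response genes drawn were picked from the 15 of 81 measured that passed the 1.25-fold rule in the knockout-labelled pair. They sit between 1.28-fold (Sesn2) and 1.51-fold (Slc7a5) there, and Lrp1, Tgfb1, Fosb, Unc13c, Syne2 and Nid2 lie below 1.

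Genes that build ribosomes lay slightly above their unscratched level. All 40 ribosome biogenesis genes were above 0 in both pairs, with medians of 0.19 in the knockout-labelled and 0.24 in the wild-type pair, while 4 of the 40 passed the 1.25-fold rule in the knockout-labelled pair, against 1.44% of all 12133 genes. Rrp12, needed for export of ribosomal subunits, was at 22 and 30.8 CPM, 1.4-fold higher (1.28 to 1.54). Ppan (1.3-fold, 1.18 to 1.42) and Bop1 (1.28-fold, 1.19 to 1.37) act in the making of the large subunit, and Ddx21 (1.27-fold, 1.22 to 1.32) is a nucleolar RNA helicase. Rrp12 and Ddx21 also passed in wild type, where Ppan was at a ratio of 1.02 (0.911 to 1.14). The 60 cytosolic ribosomal protein genes, the parts of the ribosome itself, had a median of -0.01 (0.13 in wild type), with 24 above 0. An E-box, CACGTG, the site of Myc and related factors, was found in 7 of 34 ribosome biogenesis promoters in the table (20.6%). The share was 14.3% in the amino acid lists (9 of 63) and 8.09% over all 27025 genes of the table, measured here or not. The 7 were Nop2, Pes1, Wdr43, Utp20, Rrn3, Mybbp1a and Ltv1, so none of the 4 genes past the rule was among them. Binding was not tested.

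RNA-modifying and RNA polymerase III genes stood among the 7 well-counted genes past 1.5-fold. Trmt61a, the catalytic subunit of a tRNA methyltransferase, was at 4.93 and 7.97 CPM, 1.62-fold higher (1.33 to 1.97), with 4.87 and 7.1 CPM in wild type. Polr3e, a subunit of RNA polymerase III, was at 8.38 and 12.8 CPM, 1.53-fold higher (1.32 to 1.78), against 1.21-fold (0.988 to 1.47) in wild type. It fell short of 1.5-fold with the deposited RPKM values. Mrm3, a methyltransferase of mitochondrial ribosomal RNA, was at 3.58 and 5.43 CPM, 1.52-fold higher (1.2 to 1.92), and fell short of 1.5-fold under the same settings as Slc7a5. The polyamine enzyme Srm, spermidine synthase, was at 48.5 and 67.5 CPM, 1.39-fold higher (1.31 to 1.48). Odc1, which feeds it with putrescine, was at 80.7 and 81.2 CPM, a ratio of 1.01 (0.956 to 1.06), while wild-type cells had 59.5 and 78.4 CPM. Myc was 1.19-fold higher (1.12 to 1.27) in the knockout-labelled and 1.41-fold (1.29 to 1.56) in the wild-type pair.

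Members of the cornified envelope and EGFR lists differed among themselves in direction. Fgfbp1 (chromosome 5, 43978858 to 43981779, minus strand), a secreted protein that frees fibroblast growth factors from the matrix, was at 9.8 CPM unscratched and 15.6 CPM scratched, 1.59-fold higher (1.38 to 1.82), and 1.34-fold higher (1.15 to 1.55) in wild type. Of 5 measured genes on the cornified envelope list, Fgfbp1, Sprr1a and Sprr2a3 passed the 1.25-fold rule, against 1.44% of all 12133 genes. The list counts Fgfbp1, a secreted protein, beside genes of the envelope itself, and its median of 0.42 includes Fgfbp1. The other two, the plakins Evpl and Ppl, were far more abundant and lay below 0. Evpl was at 403 and 360.4 CPM, a ratio of 0.895 (0.875 to 0.916), and at 0.86 (0.838 to 0.883) in wild type, while Ppl was at 712 and 706 CPM, a ratio of 0.992 (0.975 to 1.01). The summed level of the 5 genes went from 1145 to 1112 CPM. Sprr1a and Sprr2a3, small proline-rich proteins of the cornified envelope that injured epithelia also make, were 1.49-fold (1.33 to 1.66) and 1.34-fold (1.08 to 1.67) higher. Their wild-type ratios were 1.88 (1.66 to 2.13) and 1.99 (1.46 to 2.74), and reads of the Sprr2a copies may be split between near-identical genes. Nrg1, an ERBB ligand, was at 3.92 and 5.66 CPM, 1.44-fold higher (1.16 to 1.81), and at 3.98 and 7.67 CPM in wild type. Edn1, the vasoactive peptide endothelin, was 1.31-fold higher (1.19 to 1.44). Of the 17 measured genes on the list of EGFR ligands, receptors and feedback, 11 were below 0, with a median of -0.04. The 1.25-fold rule was passed by 2 upward and 0 downward, against 1.44% and 2.12% of all 12133 genes. The highest was the scarce Nrg2, at 0.473 and 1.06 CPM, 2.25-fold higher (1.23 to 4.4), with a ratio of 0.688 in wild type. Egfr was at a ratio of 0.947 (0.819 to 1.1), Areg at 0.885 (0.592 to 1.33) and Hbegf at 0.874 (0.812 to 0.94). Tubb3 (chromosome 8, 123411424 to 123422015, plus strand), a beta-tubulin best known from neurons, had the highest ratio of the well-counted protein-coding genes, from 13.1 to 21.3 CPM, 1.63-fold (1.45 to 1.84), and 1.46-fold (1.25 to 1.7) in wild type. Of the 14 neuronal markers, 3 were measured at 1 CPM or more, and Tubb3 alone passed the 1.25-fold rule.

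Keratins lay slightly above 0 (6 of 7, median 0.12; 0.06 in wild type), with Krt80 at 1.17-fold (1.11 to 1.24), and 0 of them passed the rule. The highest ratio, 1.22 for the scarce Krt13, had an interval that includes 1 (0.933 to 1.61). Genes of the Krt8-positive transitional state, which type 2 cells pass through on the way to type 1 cells after injury, had a median of 0.05 (0.14 in wild type). Past the rule were 3 of 27, against 1.44% of all 12133 genes. These were Sprr1a, the integrin chain Itgb6 (1.18 and 1.77 CPM, 1.5-fold, 1.001 to 2.29) and the AP-1 factor Fosl1 (1.82 and 3.15 CPM, 1.73-fold, 1.26 to 2.4). Itgb6 and Fosl1 were scarce in every library, and Fosl1 was at 1.37 and 1.68 CPM in wild type. Glycolysis and the NRF2 antioxidant targets had medians of 0.08 and 0.10 (0.15 and 0.16 in wild type). Of 23 measured glycolysis genes, 17 lay above 0. The 1.25-fold rule was passed by 1 upward and 2 downward, against 1.44% and 2.12% of all 12133 genes. Eno2, an enolase, was 1.28-fold lower (1.1 to 1.49). Hk2, hexokinase, which traps glucose in the cell, was at 10.04 and 14 CPM in the knockout-labelled pair, 1.4-fold higher (1.22 to 1.61). In the wild-type pair it was at 2.77 and 6.67 CPM, 2.41-fold higher (1.83 to 3.19), so the ratio was smaller in the knockout-labelled cells and both of their levels were higher. The difference of the responses was -0.77 on the log2 scale (counting interval -1.20 to -0.34).

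The genes lower after the scratch were led by single genes rather than by a named group. Unc13c (chromosome 9, 73479422 to 73968966, minus strand), a relative of the vesicle priming factors of synapses, was the only well-counted protein-coding gene lower by 1.5-fold. It went from 14 to 7.75 CPM, 1.8-fold lower (1.56 to 2.08), with 10.3 and 8.17 CPM in wild type. Lrp1 (chromosome 10, 127538161 to 127621148, minus strand), a large endocytic receptor that clears proteases and matrix proteins, was at 376 and 280.1 CPM, 1.34-fold lower (1.31 to 1.38), and 1.41-fold lower in wild type. Tgfb1, the growth factor TGF-beta 1, was at 45.8 and 35 CPM, 1.31-fold lower (1.22 to 1.41), and 1.34-fold lower in wild type. The receptor-like gene Tgfbr3l was 1.3-fold lower (1.04 to 1.61). Bach2, a transcriptional repressor, and Msh5, a meiotic mismatch repair relative, were 1.46-fold (1.26 to 1.69) and 1.5-fold (1.23 to 1.81) lower, and both were also lower in wild type (1.3-fold and 1.82-fold). Spred3 and Il17rd, inhibitors of receptor tyrosine kinase signalling, were 1.26-fold (1.11 to 1.44) and 1.27-fold (1.06 to 1.52) lower in the knockout-labelled pair. The ERK pathway feedback list was evenly split, with 8 of 16 measured genes above 0 and a median of 0.01. Of these, 1 passed the 1.25-fold rule upward and 2 downward, against 1.44% and 2.12% of all 12133 genes. The upward gene was the scarce Fosl1, at under 5 CPM. The lowest gene of the list was Etv5, given below, so the 2 downward genes are not the pair of Spred3 and Il17rd. Dusp5 of this list was 1.22-fold higher (1.04 to 1.45).

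Genes of the extracellular matrix lay mostly slightly below their unscratched level. Of 30 matrix and basement membrane genes 27 were below 0, with a median of -0.11 (-0.04 in wild type), and 2 passed the 1.25-fold rule downward, against 2.12% of all 12133 genes. These were Nid2, which links laminin to collagen IV, at 246 and 185 CPM, 1.33-fold lower (1.29 to 1.37), and Tnc, the wound glycoprotein tenascin C, at 43.3 and 33.3 CPM, 1.3-fold lower (1.21 to 1.4). In wild type Nid2 was 1.14-fold lower and Tnc was at a ratio of 0.97 (0.873 to 1.08). The laminin chains Lama5 and Lamc1 and the proteoglycan Hspg2 were 1.24-fold (1.22 to 1.26), 1.18-fold (1.16 to 1.19) and 1.19-fold (1.17 to 1.2) lower, all under the rule. Collagen Col1a1 was at 197 and 177 CPM, 1.11-fold lower (1.08 to 1.15), and in wild type at 21.3 and 16.5 CPM, 1.29-fold lower. Mmp13, a collagenase, was 1.31-fold (1.17 to 1.46) lower, whereas its wild-type ratio was 1.04 (0.923 to 1.16). Plaur, the urokinase receptor, and Timp1, a metalloprotease inhibitor, were 1.23-fold (1.09 to 1.38) and 1.22-fold (1.05 to 1.42) higher. The mucin Muc5b, a product of airway secretory cells, was at 77.1 and 58.5 CPM, 1.32-fold lower (1.25 to 1.39), and at 10.2 and 9.64 CPM in wild type.

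Many of the lower genes have long transcripts, among them Lrp1, Syne2, Hmcn1 and Stard9. The 638 genes whose longest transcript exceeds 8 kb had a median log2 difference of -0.09 in the knockout-labelled and -0.06 in the wild-type pair. They held 29 of the 116 genes lower by 1.25-fold and 1 of the 93 higher. The median transcript length was 4.28 kb for the lower, 3.12 kb for the higher and 3.56 kb for all 10163 genes. With a trend on GC content and length taken out, the matrix median was -0.08 and 14 genes were lower in both pairs in place of 22, with 12 of the 22 among them. Whether RNA quality, which can act on long transcripts, had a part in the lower genes was not tested.

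**Figure D3:**
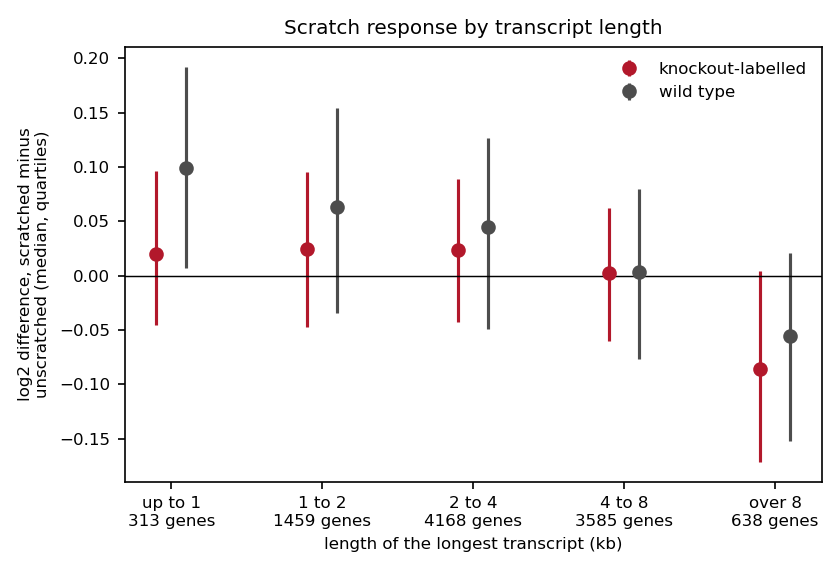
Median log2 scratch response (points) with the quartiles (bars) of protein-coding genes of at least 5 CPM, grouped by the length of the longest transcript in kb, in the knockout-labelled (red) and wild-type (grey) pairs. The 638 genes over 8 kb have the lowest median in both pairs, -0.09 and -0.06.

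Most lists of pathways that are often followed after wounding had a median near that of all genes, which was 0.01 in the knockout-labelled pair. Actomyosin genes (30 measured) and integrin adhesion genes (28) had medians of 0.01 and 0.00. Both signs changed with the GC and length trend removed, and that of actomyosin also with total counts. YAP targets had a median of 0.03, with Ccn1 at a ratio of 1.05 (1.03 to 1.07), Ccn2 at 0.919 (0.889 to 0.949) and Ankrd1 at 1.14 (1.07 to 1.21). The 50 S phase genes had a median of 0.01, which was below 0 when scaled by total counts, and the 54 G2 and M phase genes a median of -0.02 (0.10 in wild type). Mki67, the proliferation antigen, was at 955 and 808 CPM in the knockout-labelled and 746 and 790.1 CPM in the wild-type libraries, a ratio of 0.846 (0.833 to 0.859) against 1.06 (1.04 to 1.08). Epithelial junction genes had a median of -0.04, p53 targets of 0.02 and the unfolded protein response of 0.02. Alveolar type 2 genes had a median of -0.07 (12 of 16 below 0), with Sftpb 1.14-fold lower (1.09 to 1.19) and Etv5, a transcription factor downstream of FGF receptors, 1.29-fold lower (1.21 to 1.37). Interferon-stimulated and fatty acid synthesis genes lay at -0.06 and -0.07, where wild type had 0.05 and 0.04. Cholesterol synthesis had a median of -0.01 against 0.17 in wild type. In the LINGO and Nogo receptor group, 8 of 16 genes were measured, 4 of them above 0, and Lrp1 alone passed the 1.25-fold rule.

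**Figure D4:**
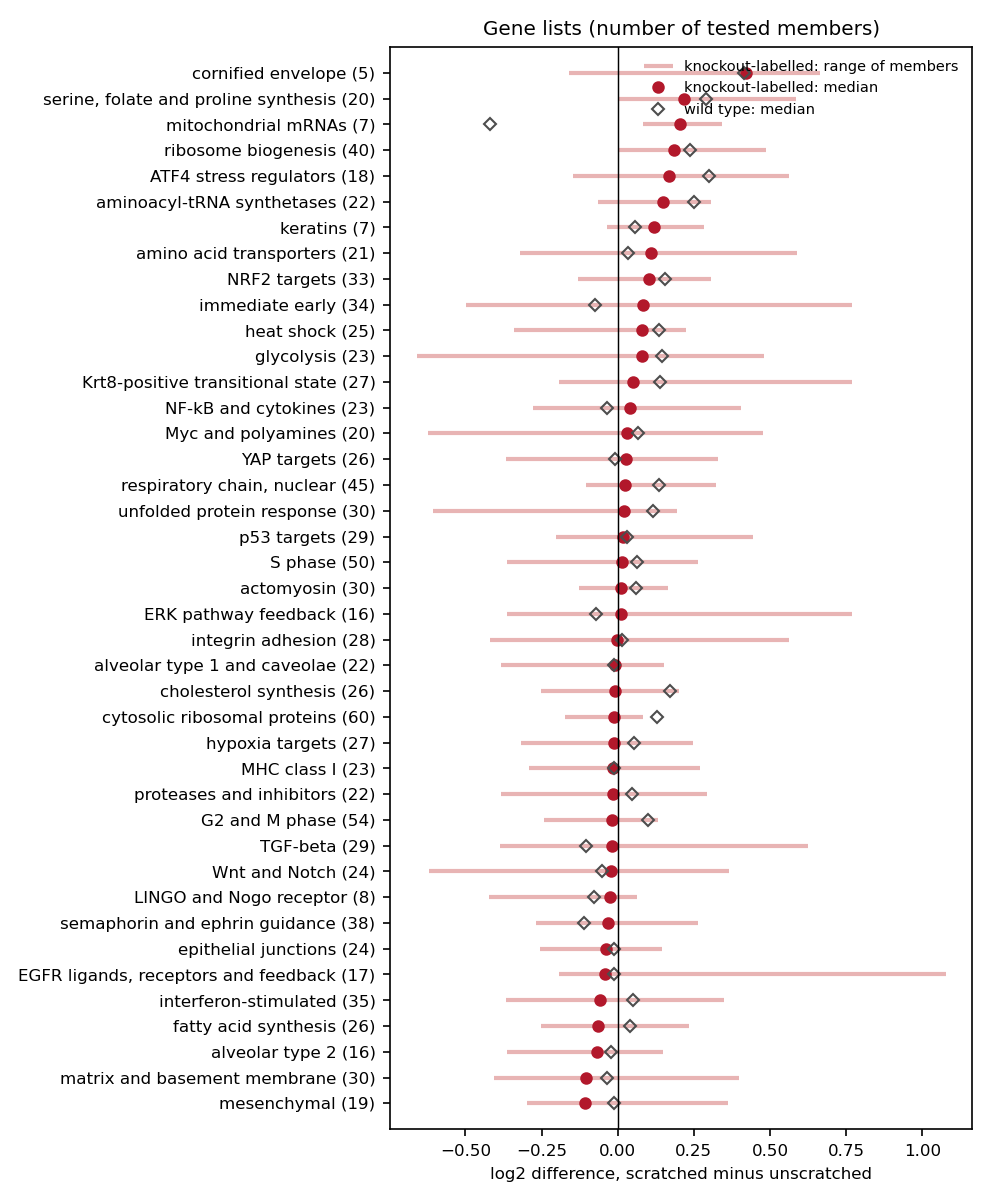
Median log2 scratch response of the tested members of 41 gene lists in the knockout-labelled pair (red points, with the range of members as bars) and the wild-type pair (open diamonds), ordered by the knockout-labelled median. Lists of amino acid synthesis, ribosome biogenesis and tRNA charging lie at 0.15 to 0.22. They are below the cornified envelope list at 0.42, which has 5 genes and includes the secreted Fgfbp1. The 7 measured mitochondrial mRNAs have medians of opposite signs in the pairs.

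Immediate early genes, the transcription factors and regulators that cells switch on within minutes of a stimulus, had medians of opposite sign in the pairs. The median was 0.08 in the knockout-labelled pair, with 24 of 34 above 0, and -0.08 in wild type, with 12 of 34 above 0. Junb was at 118 and 140.1 CPM in the knockout-labelled libraries and at 177 and 132 CPM in wild type. Ier2 was at 130.4 and 155 CPM against 200.4 and 165 CPM. In both genes the unscratched wild-type library was the high value and the scratched libraries were closer to each other. Structural RNA also took more of the unscratched wild-type library (1.13%) than of the scratched one (0.361%), and its part in these values was not tested. The pairs also differed by GC content. The 391 well-counted protein-coding genes of over 60% GC had medians of 0.01 in the knockout-labelled and -0.14 in the wild-type pair. How far GC content bears on the opposite signs was not tested. The differences of the responses were 0.67 (0.58 to 0.75) for Junb and 0.53 (0.45 to 0.61) for Ier2 on the log2 scale. Fos had ratios of 1.06 and 0.83, and Jun of 1.04 and 0.783, in the knockout-labelled and wild-type pair. Fosb was lower in both, at 9.67 and 6.83 CPM (1.42-fold lower, 1.2 to 1.66) and 16.8 and 7.64 CPM (2.2-fold lower). Sgk1, a kinase induced by serum and glucocorticoids, was 1.33-fold higher (1.19 to 1.49) and Ptgs2, cyclooxygenase 2, 1.33-fold higher (1.07 to 1.66) in the knockout-labelled pair.

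The difference of the responses was compared with its counting error for every gene. At a difference of at least 1 on the log2 scale, 63 of 12133 genes (0.519%) had the higher response in the knockout-labelled pair and 16 (0.132%) the lower. Of these 79 genes, 24 were structural or histone RNAs and 51 of the others stayed under 5 CPM. Among the 10163 well-counted protein-coding genes, a difference of at least 1.5-fold was found upward for 31 (0.305%) and downward for 13 (0.128%), a threshold chosen after the data were seen. Smad6, an inhibitor of BMP signalling, was at 29.9 and 33.8 CPM in the knockout-labelled pair and at 47.2 and 31.6 CPM in wild type, a difference of 0.76 (0.59 to 0.93). Efna2, an ephrin ligand of guidance receptors, was at 15.4 and 18.6 CPM against 20.5 and 15.8 CPM, a difference of 0.64 (0.40 to 0.88). As with Junb, the unscratched wild-type library held the highest value of both genes. With a trend on GC content and length taken out, the 1.5-fold differences were 20 upward and 15 downward. With the opposite sign, Prickle1, a planar polarity gene, was at 9.29 and 7.04 CPM against 5.31 and 6.24 CPM, a difference of -0.63 (-1.02 to -0.24). With 1 library per condition, a difference between genotypes and a difference between single libraries cannot be told apart.

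Ribosomal and small structural RNAs had opposite differences in the pairs. They made up 0.487% of the counts in the unscratched and 1.25% in the scratched knockout-labelled library, and 1.13% and 0.361% in the wild-type libraries. Of 22 such genes measured, 17 were higher in the knockout-labelled and lower in the wild-type pair, and 7 of 10 histone genes, whose replication-dependent transcripts mostly lack a poly(A) tail, were at least 1.5-fold higher in the knockout-labelled and at least 1.5-fold lower in the wild-type pair, where 1.48% of all genes were lower by that rule. The 7 measured mitochondrial mRNAs were all above 0 in the knockout-labelled and all below 0 in the wild-type pair, with medians of 0.21 and -0.42. The other 6 of the 13 listed (mt-Nd3, mt-Nd4l, mt-Co2, mt-Co3, mt-Atp6 and mt-Atp8) had 0 counts in both knockout-labelled libraries, for a reason that was not tested. Mitochondrial mRNA as counted, which is part of the set, made up 0.679% and 0.761% of the knockout-labelled and 0.962% and 0.685% of the wild-type counts. The library kit selects mRNA, and the part of RNA selection in the differences between the genotypes was not tested.

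**Figure D5:**
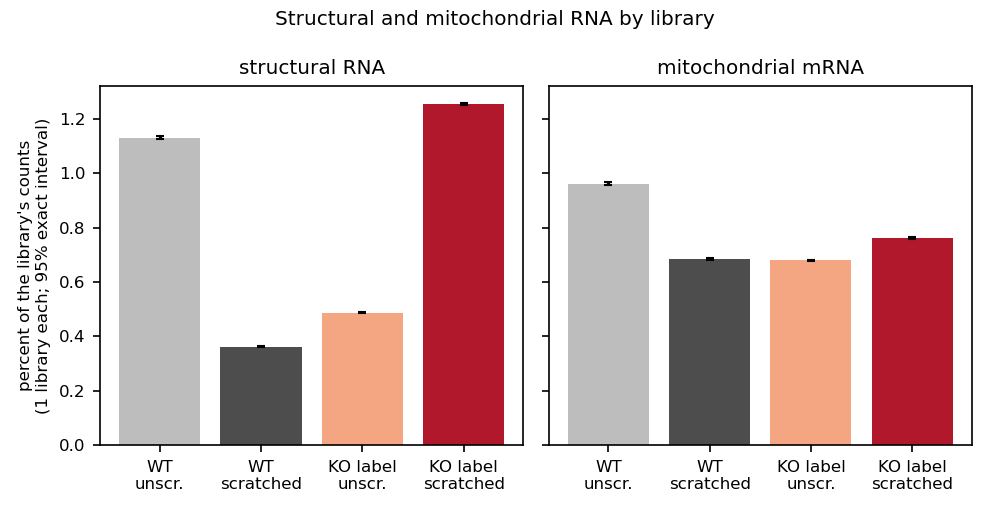
Share of each library's counts, in percent, taken by ribosomal and small structural RNA (left) and by mitochondrial mRNA (right) in the 4 libraries, 1 bar each from 0, with exact 95% intervals. Of 13 listed mitochondrial mRNAs, 6 had 0 counts in both knockout-labelled libraries, so the right panel covers part of the set. The structural share is 1.25% in the scratched knockout-labelled and 1.13% in the unscratched wild-type library, and 0.487% and 0.361% in the other two.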

How the data were processed

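RNA of MLE-12 cells was sequenced in 4 libraries, 1 per condition. The authors deposited raw read counts for 46078 Ensembl genes and RPKM values (corrected for gene length and depth) for 14844 genes, of which 161 hold no values. Per the submitters' processing notes, edgeR 3.32.1, HTSeq 0.11.3, STAR 2.7.9a and Trimmomatic 0.39 were used with mm10, and the notes give no role for each. Per the labels' protocols, a strand-specific mRNA kit was used, whereas for the counting step no strand setting or annotation release is given in the sources used here, which leaves overlapping and antisense genes uncertain. Columns were matched to samples by genotype and by the letter S for scratch, and N was taken as unscratched by elimination.

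Counts were scaled with TMM factors (0.991 to 1.0075) in edgeR 4.0.16 under R 4.3.3. CPM ratios carry exact 95% Clopper-Pearson intervals on the split of the counts, and differences between responses carry normal intervals from the reciprocal counts. Both cover counting error only, since reads have no molecular identifiers and no condition has a replicate, so no p-value was computed. The calling script was tested on simulated counts with known folds and counting error only. That setting has no variation between cultures or libraries, so the test does not bear on it. Positions and gene types came from GENCODE release M21 of the same build (45229 identifiers matched) and names from a reference table (45143 matched). Structural RNA comprised rRNA, tRNA and other small non-coding types and Lars2, which collects ribosomal RNA reads. Scripts ran on Python 3.11.15 with numpy 2.4.6, pandas 2.3.3, scipy 1.17.1 and matplotlib 3.10.9.

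The comparison, the 41 gene lists, 6 marker lists and rules were chosen with earlier results of these data known. The named genes are, first, up to 15 protein-coding genes each way past 1.5-fold and 5 CPM. Added to these were up to 4 members per list with the largest difference, up to 5 genes each way whose response differed between genotypes, and Lingo1. Gm and Rik names, histones, mitochondrial genes and Lars2 were left out of the first set and the genotype set. Other genes, including most of those past 1.25-fold, were named after their values were seen, and a gene that the rule named is not reported here. Alternatives were DESeq2 1.42.0 size factors, total counts, protein-coding totals, a minimum of 5 CPM or none, a prior count of 0.5, the RPKM values with a pseudocount of 0.1, and removal of a GC and length trend.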

Additional observations from a re-analysis of the deposited data

Results flagged for a closer look

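Some results had opposite signs in the knockout-labelled and the wild-type pair. Since each condition is 1 library, these differences were compared with counting error only and not tested over cultures. The response of Rpl23a, a ribosomal protein of the large subunit, was higher by 2.22 on the log2 scale in the knockout-labelled pair (4.77 and 6.72 CPM, against 10.1 and 3.01 CPM in wild type). Reads of this gene may be shared with near-identical processed copies. Ccdc85b, a coiled-coil protein, differed by 1.22 (6.25 and 8.18 CPM, against 8.41 and 4.7 CPM). The mitochondrial complex I subunit mt-Nd1 differed by 1.01 (1086 and 1376 CPM, against 1448 and 912 CPM). In all, the responses of 44 protein-coding genes of at least 5 CPM differed by 1.5-fold. The structural RNA share went up in the knockout-labelled and down in the wild-type pair, and the changes differed by 1.54 percentage points.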

How the results depend on the processing

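No paired analysis was possible because each condition has 1 library and the labels carry no replicate numbers, and for the same reason no replicate could be left out. The counts of calls depended on the filter on low counts. With at least 5 CPM the genes past 1.5-fold were 20 higher and 3 lower (58 and 77 as reported), those past 2-fold 5 and 0 (17 and 6), and those with a differing response 15 and 0 (63 and 16). The share of higher genes among the 1.5-fold calls was 43.0% as reported and 87.0% with at least 5 CPM. With no minimum the counts were 131 and 227, 84 and 142, and 139 and 36. With the RPKM values 9 genes were higher and 3 lower by 2-fold, and with a prior count of 0.5 the response of 25 genes was lower in the knockout-labelled pair by the log2 rule. With a GC and length trend taken out, 20 of the well-counted genes in place of 31 had a higher response by 1.5-fold, and 14 in place of 22 were lower in both pairs. Of the 32 genes higher in both pairs, 30 or more remained under every setting. Higher genes made up 44.5% of the 1.25-fold calls, 37.4% with total counts and 51.5% after the trend was removed. None of the named genes called at 1.5-fold changed sign, and the other called genes were not compared for sign. List medians changed sign under at least 1 setting for ERK feedback, S phase, actomyosin, hypoxia, integrin adhesion, proteases, and the epithelial and endothelial markers, all within 0.02 of 0 as reported except the endothelial markers (-0.10, 2 genes). Depth limits most the genes under 5 CPM, whose counting intervals are wide.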

Other observations

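The genes given here were picked after their values were seen. Higher in both pairs were Ugt1a6b, a glucuronidation enzyme (4.06 and 6.28 CPM, 1.55-fold, 1.25 to 1.93), the drug efflux pump Abcb1b (13.7 and 18.8 CPM, 1.37-fold, 1.22 to 1.55) and the reelin receptor Lrp8 (19.7 and 24.7 CPM, 1.26-fold, 1.14 to 1.39). Ugt1a6b shares exons with its neighbours in the Ugt1a cluster, so its count is uncertain. Aen, a p53-induced nuclease, was 1.36-fold higher (1.22 to 1.53), while Cdkn1a, the p53 target that halts the cell cycle, was at a ratio of 1.05 (0.89 to 1.25). Of the genes lower in the knockout-labelled pair, the calcium pump Atp2b4 was at 90.00 and 64.8 CPM, 1.39-fold lower (1.32 to 1.46), and 1.19-fold lower in wild type. Syne2, which ties the nucleus to the cytoskeleton, was at 283 and 208 CPM, 1.36-fold lower (1.32 to 1.4), and 1.14-fold lower in wild type. Dapk2, a kinase linked to cell death, was at 11.8 and 8.2 CPM, 1.44-fold lower (1.24 to 1.66). Prxl2a, a redox protein, was at 12 and 8.06 CPM, 1.49-fold lower (1.29 to 1.73), against 12.4 and 11.9 CPM in wild type, a difference of the responses of -0.52 (-0.83 to -0.22) on the log2 scale.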
